A study of Sus scrofa with 9 samples.

Results

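The genes described are those of the cytosolic ribosomal proteins, the protein subunits of the ribosomes that translate nuclear-encoded mRNA. Members were taken by name: array probe sets annotated to a single gene whose symbol begins RPL or RPS followed by a digit, or is RPLP0 to RPLP2 or RPSA, with the RPS6 kinases left out and with 1 probe set kept per gene, the one with the highest mean over the 9 arrays. This gave 43 genes, drawn from 54 probe sets, of 12361 genes named by a single symbol. Of the 43, 23 encode proteins of the large subunit and 15 of the small subunit. Another 4, RPL7L1, RPL26L1, RPL36AL and RPS27L, are paralogs of a ribosomal protein, and the last 1, RPS19BP1, which binds the ribosomal protein RPS19, enters by its name alone and is not a subunit of the ribosome. RNA was taken from longissimus dorsi, a mostly fast-twitch muscle along the spine, in male finishing pigs of about 95 kg initial weight after 5 weeks on 1 of 3 diets: deficient, adequate or in excess for lysine. There were 3 pigs per diet, each hybridised to 1 array: pigs 1, 2 and 3 on the deficient, 5, 6 and 7 on the adequate and 9, 10 and 11 on the excess diet. No age, strain or lysine content of the feed is stated. The study asked how dietary lysine relates to the muscle transcriptome.

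A ribosome joins a small subunit, which decodes the mRNA, to a large subunit, which forms the peptide bond, and each cell needs the subunit proteins in near-equal number. Their mRNAs begin with a terminal oligopyrimidine (TOP) tract, and in growing or well-fed cells the kinase mTORC1, which senses amino acids, raises translation of these mRNAs together through the repressor LARP1. This control acts largely on translation and less on mRNA level, and an expression array reads mRNA level only. Lysine is usually the first amino acid to limit growth of pigs on cereal diets, and muscle is the largest site of protein deposition.

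Values are log2 intensities. Probe sets of different genes have different affinities, so levels are compared between pigs and not between genes. The members lay high on the arrays: their median position was the 95.0th percentile of all 27558 probe sets, and 29 of 43 lay in the brightest 10%. Lowest were RPL22, RPL26L1, RPL27A, RPS19BP1, RPS29 and RPS6, 6 probe sets whose means lay below the median of all probe-set means, 5.07, and which are called dim below. The remaining members outside the brightest 10% lay between percentile 50.4 (RPS24, just above that median) and percentile 83.2 (RPL36). The tissue label was checked against 5 measured genes of muscle fibres (ACTA1, MYH1, MYH7, TNNC2 and MYLPF, of 13 listed), whose mean lay between 12.78 and 12.97 on every array. Excess pig 11 stood apart from the other arrays in the spread of its values. Their SD was 1.82 where the other 8 arrays had 1.93 to 1.99, and its brightest 10% of probe sets had a median deviation of -0.26 from their own 9-array means. The array weights of limma are lower for arrays farther from their diet's fit. They were lowest for excess pig 10 (0.19) and then excess pig 11 (0.22), against 0.68 to 2.46 on the others. That fit gave a convergence warning. Results that rest on pig 11 are given with and without it. In whole muscle, fewer cells of a type and less RNA per cell cannot be told apart.

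The ribosomal protein mRNAs varied little, and much of what variation there was they shared as a level per pig. The mean over the 43 members was 9.00, 9.16 and 9.06 in deficient pigs 1, 2 and 3. It was 9.04, 9.05 and 9.07 in adequate pigs 5, 6 and 7. It was 8.96, 9.15 and 8.88 in excess pigs 9, 10 and 11. The whole range over pigs was thus 0.28, and the diets overlapped, since deficient pig 2 and excess pig 10 were the highest and excess pigs 11 and 9 the lowest. The diet means were 9.07 ± 0.083 (SD, n = 3) for deficient, 9.05 ± 0.014 for adequate and 9.00 ± 0.14 for excess, or 9.06 for excess without pig 11.

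**Figure D1:**
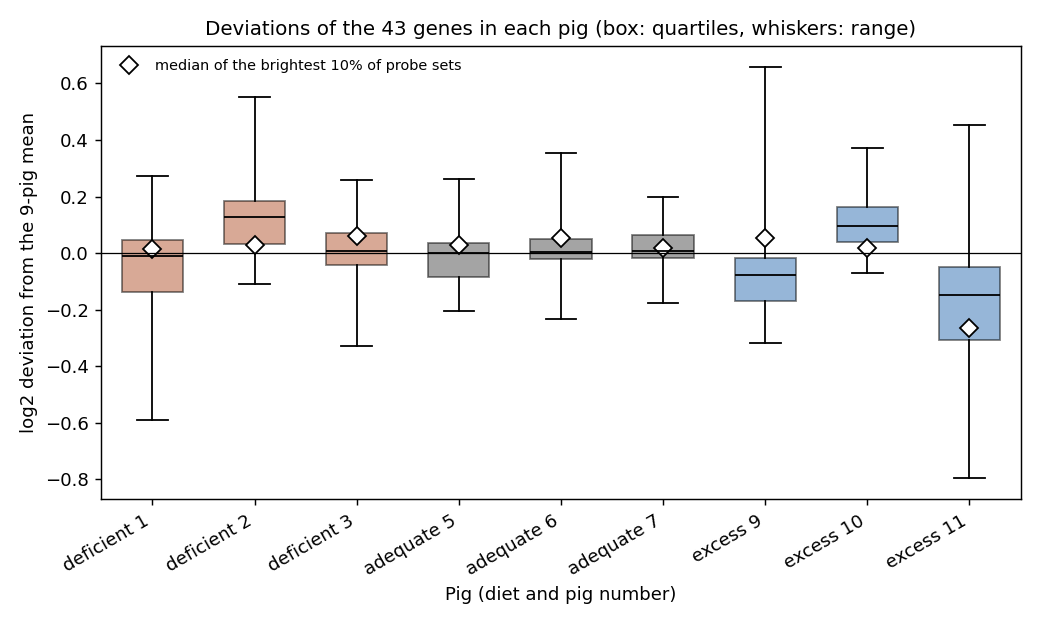
Deviation of each member from its own mean over the 9 arrays (log2, vertical axis) by pig (horizontal axis), with the median of the members and that of the brightest 10% of all probe sets marked. The members' median lies above 0 in deficient pig 2 (0.13) and excess pig 10 (0.096) and below it in excess pigs 9 (-0.079) and 11 (-0.15).

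The shared level was visible gene by gene. In deficient pig 2, 37 of 43 members lay above their own 9-array mean and 16 had their highest value of all pigs. In excess pig 10, 38 lay above their own mean and 10 had their highest value. In excess pig 11, 19 members had their lowest value, and in excess pig 9, 11 did. The brightest 10% of all probe sets had median deviations of 0.029 in deficient pig 2, 0.016 in excess pig 10 and 0.052 in excess pig 9. The members' medians in those pigs were 0.13, 0.096 and -0.079, and the reason for the gap was not tested. In excess pig 11 the bright probe sets deviated further (-0.26) than the members (-0.15). Adequate pigs hardly differed from each other, with members' medians of -0.0004, 0.0030 and 0.0082.

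Most pairs of members were high and low in the same pigs. Over 9 arrays the median pairwise correlation was 0.37 among the 43 members. It was 0.50 among the 37 members that were not dim, with 574 of 666 pairs above 0, and 0.40 among them without excess pig 11. These points share their arrays and their normalization, so the correlations are descriptions. The members nearest to the mean of the others were RPL12 (r = 0.92), a protein at the base of the factor-binding stalk, RPL24 (r = 0.92) and RPL13A (r = 0.91). RPL12 read 11.25, 11.57 and 11.37 in deficient pigs, 11.37, 11.39 and 11.37 in adequate pigs and 11.19, 11.44 and 11.20 in excess pigs, which is the shared profile, highest in deficient pig 2 and excess pig 10. Farthest from it were RPL22 (r = -0.64), RPS24 (r = -0.27) and RPL38 (r = -0.11). For RPL22 and RPS24 this rested on excess pig 11, without which r was 0.19 and 0.29, whereas for RPL38 it was -0.10 without that pig. Over the 8 pigs without pig 11 the lowest were RPLP2 (r = -0.34, from 0.40 over 9), RPL26L1 (-0.24, from 0.11), RPS19BP1 (-0.20, from -0.019) and RPL3 (-0.15, from 0.37), so which members stood farthest depended on that pig.

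**Figure D2:**
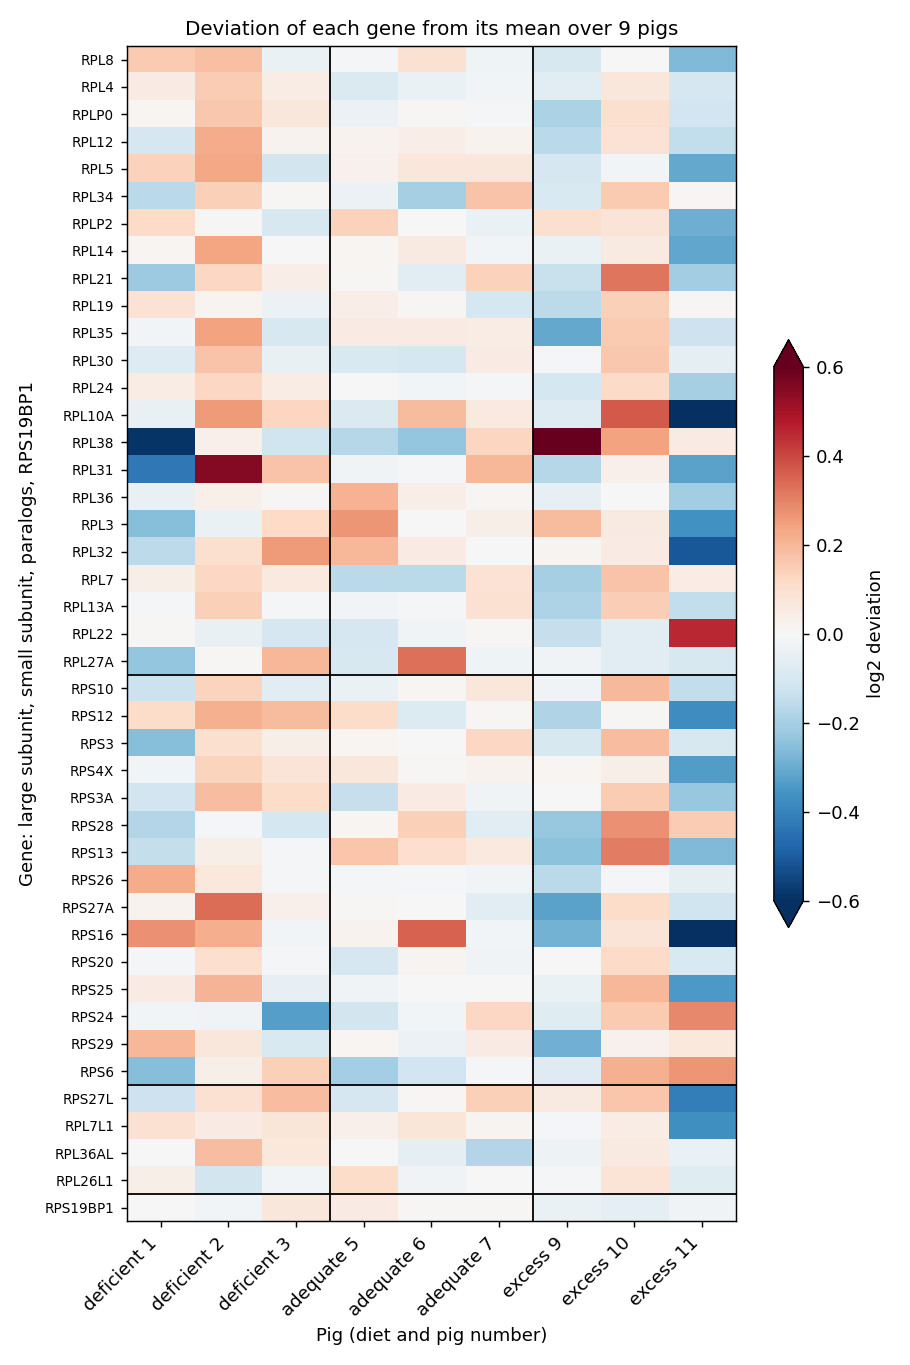
Deviation of each of the 43 members (rows) from its own 9-array mean, in log2 units shown by colour, in each pig (columns, grouped by diet). The columns of deficient pig 2 and excess pig 10 are mostly above 0 and those of excess pigs 9 and 11 mostly below it, whereas the rows of RPL38, RPS24 and RPL22 depart from this pattern.

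Spread within a diet was lower for the members than for most of the array. The median within-diet SD was 0.14 for the members, 0.17 over all probe sets and 0.18 over the brightest 10%. The steadiest were RPS19BP1 (SD 0.032, dim), RPL4 (0.066), RPL26L1 (0.074, dim), RPS20 (0.077) and RPL36AL (0.081). The widest were RPL10A (0.36), RPL31 (0.31), RPL38 (0.28), RPS16 (0.25) and RPL32 (0.23). RPL10A read 9.67, 9.97 and 9.84 in deficient pigs, 9.63, 9.91 and 9.77 in adequate pigs and 9.64, 10.09 and 8.92 in excess pigs, so most of its spread was the gap between excess pigs 10 and 11. RPL31 ranged from 8.41 to 9.39, both in deficient pigs. RPL32 lay between 6.12 and 6.54 in 8 pigs and at 5.77 in excess pig 11.

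Each pair of diets was compared in 1 limma model over all probe sets, with Benjamini-Hochberg adjustment over all 27558. No member passed an adjusted p of 0.05 in any pair or in the F test over the 3 diets, and neither did any other probe set (0% called each time). The members' differences were small as well as not called. The largest fold between diet means was 1.12 for deficient against adequate, 1.33 for excess against adequate and 1.46 for deficient against excess. The 95% interval of the difference lay inside 1.5-fold either way for 41, 38 and 37 of the 43 members in these pairs. It lay inside 2-fold for all 43, all 43, and all but RPL38. The genes whose interval reached past 1.5-fold were RPL10A and RPL38 in every pair, with RPL31, RPL32 and RPS16 added in both pairs that hold the excess diet and RPS12 in deficient against excess. All 3 comparisons share pigs, since each diet enters a pair of them, and so are not independent.

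**Figure D3:**
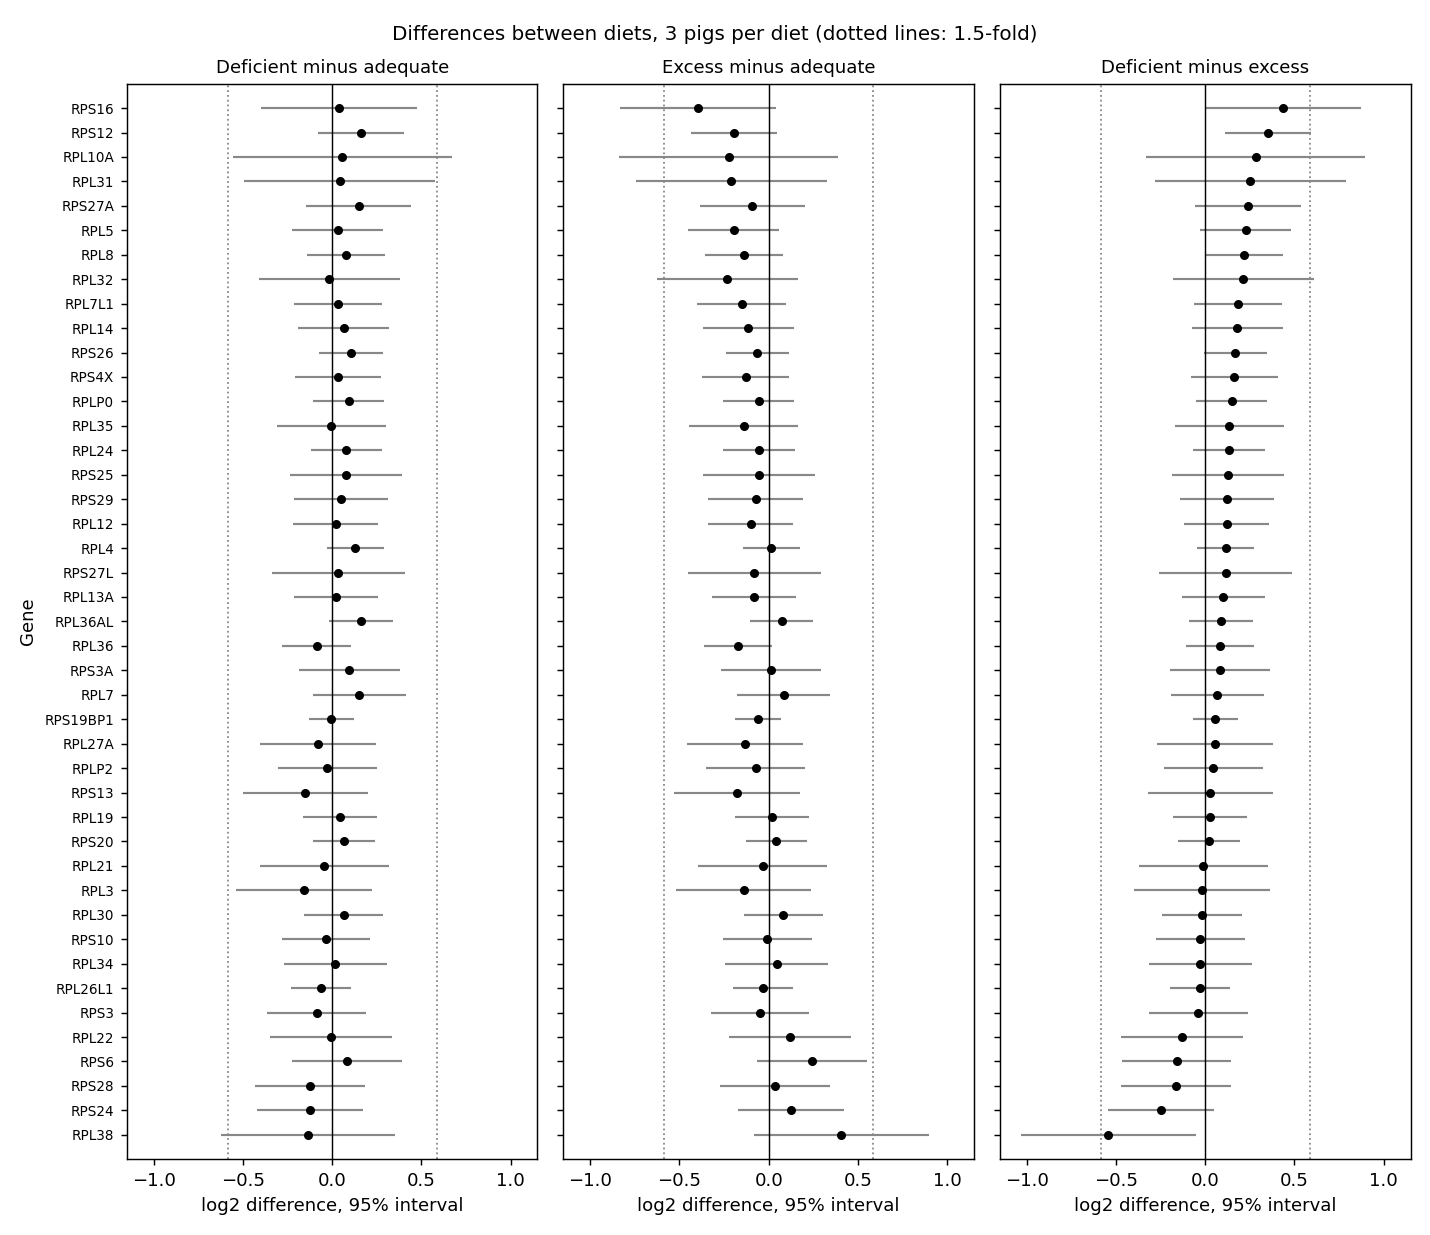
Difference in mean log2 value for each of the 43 members (points, with 95% intervals from limma) in the 3 pairs of diets, 3 pigs per diet. All intervals include 0 except those of RPS12 (above it) and RPL38 (below it) for deficient minus excess, and those of RPL38 and RPL10A are among the widest.

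Pigs on the deficient and the adequate diet had ribosomal protein mRNA at nearly the same level. Of 43 members, 27 were higher on the deficient diet by sign (52.9% of all probe sets were) and 16 lower, with a median difference of 0.033, against 0.0071 over all probe sets. The median was 0.020 for the large subunit (14 of 23 higher) and 0.050 for the small subunit (10 of 15 higher). No member had an unadjusted p below 0.05 (1.85% of all probe sets did), and the smallest adjusted p of a member was 1 by limma. The small lean towards higher values came from deficient pig 2: without it 19 members were higher and the median was -0.012. The median was 0.018 without adequate pig 5 and 0.050 without deficient pig 1.

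In 6 members all 3 deficient pigs lay above all 3 adequate pigs, which is 14.0% of members against 3.77% of all probe sets. They were RPL4, RPL24 and RPLP0 of the large subunit and RPS12, RPS26 and RPS27A of the small subunit. RPL4, a protein that lines the exit tunnel of the nascent chain, read 12.21, 12.31 and 12.20 in deficient pigs, 12.07, 12.12 and 12.14 in adequate pigs and 12.09, 12.23 and 12.06 in excess pigs. Its 3 deficient values were above every adequate value, and excess pig 10 lay above deficient pigs 1 and 3. The difference from adequate was 0.13 ± 0.069 (SE), or 1.09-fold. RPLP0, which anchors the stalk that recruits elongation factors, read 11.66, 11.81 and 11.71 in deficient pigs, 11.61, 11.65 and 11.63 in adequate pigs and 11.46, 11.74 and 11.53 in excess pigs. Deficient pig 1 and adequate pig 6 were almost level, and the difference of 0.093 ± 0.085 was 0.053 without deficient pig 2.

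RPS27A, made as a fusion with ubiquitin that is cut to release the ribosomal protein, read 9.76, 10.07 and 9.77 in deficient pigs and 9.74, 9.74 and 9.67 in adequate pigs. Deficient pig 2 carried the difference, which was 0.15 ± 0.13 with it and 0.045 without it. RPS26, a small-subunit protein at the mRNA exit channel, read 9.99, 9.83 and 9.76 in deficient pigs, 9.75 in each adequate pig and 9.60, 9.75 and 9.71 in excess pigs. Deficient pig 1 was its highest, and the difference from adequate of 0.11 ± 0.077 was 0.042 without that pig. RPL24 differed by 0.080 ± 0.086. The only member with all 3 deficient pigs below all 3 adequate pigs (2.33% of members, 3.07% of all probe sets) was RPS13, at 9.92, 10.10 and 10.05 against 10.23, 10.16 and 10.12, a difference of -0.15 ± 0.15 that was -0.098 without deficient pig 1.

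Pigs on the excess diet had slightly lower values than adequate pigs for most members, and the gap was smaller without excess pig 11 or excess pig 9. By sign 13 members were higher (50.2% of all probe sets were) and 30 lower, with a median of -0.063, against 0.0006 over all probe sets and -0.11 over the brightest 10%. Scaling moved this lean both ways: with each array centred on its own median 7 were higher (median -0.12), after repeated quantile normalization 17 were (median -0.029), and with array SD as a covariate 16 were (median -0.021). Without pig 11, 20 were higher and the median was -0.0053. Without pig 9, 17 were higher and the median was -0.027, and without pig 10, 7 were higher and the median was -0.14. The median was -0.082 for the large subunit (7 of 23 higher) and -0.054 for the small subunit (5 of 15 higher). No member had an unadjusted p below 0.05 (3.56% of all probe sets did), and the smallest adjusted p of a member was 0.757 by limma. Without pig 10, 3 members had an unadjusted p below 0.05, and the share of all probe sets in that fit was not counted.

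No member had all 3 excess pigs above all 3 adequate pigs (3.20% of all probe sets did), and 3 members had them all below, which is 6.98% against 3.84%. These were RPL5, RPL36 and RPS19BP1. RPL5, a large-subunit protein that with RPL11 carries the small ribosomal RNA of that subunit and can bind the p53 regulator MDM2, read 11.45, 11.55 and 11.20 in deficient pigs, 11.34, 11.38 and 11.38 in adequate pigs and 11.21, 11.30 and 11.01 in excess pigs. Excess pig 11 was its lowest, and the difference of -0.20 ± 0.11 was -0.11 without it. RPL36 read 8.0, 7.83 and 7.80 in adequate pigs and 7.74, 7.79 and 7.58 in excess pigs, with adequate pig 7 and excess pig 10 nearly equal. Its difference of -0.17 ± 0.082 was -0.11 without adequate pig 5 or excess pig 11, -0.10 with array SD as a covariate, and -0.029 after quantile normalization was applied again. RPS19BP1, at the dim end of the array, differed by -0.060 ± 0.055, or -0.12 with each array centred on its median.

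RPS16, a small-subunit protein whose tail reaches the decoding site, showed the lowest unadjusted p of this pair and stood apart mainly in 1 pig. It read 9.57, 9.51 and 9.28 in deficient pigs, 9.32, 9.65 and 9.28 in adequate pigs and 9.01, 9.37 and 8.67 in excess pigs. Excess pig 10 lay among the adequate pigs and excess pig 11 far below. The difference of -0.40 ± 0.19 was -0.22 without pig 11.

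Deficient and excess pigs gave the widest separation of the 3 pairs, though still within 1.5-fold for every member's mean difference. By sign 31 members were higher on the deficient diet (50.0% of all probe sets were) and 12 lower, with a median of 0.088, against 0.0001 over all probe sets and 0.099 over the brightest 10%. With each array centred on its own median 38 were higher (median 0.14), after repeated quantile normalization 28 were (median 0.052), and with array SD as a covariate 27 were (median 0.054). The median was 0.10 for the large subunit (17 of 23 higher) and 0.084 for the small subunit (10 of 15 higher). Without excess pig 11 the members' median was 0.037 with 25 higher, without deficient pig 2 it was 0.047, and without excess pig 10 it was 0.17. The members with an unadjusted p below 0.05 numbered 2, RPS12 and RPL38, which is 4.65% of 43 against 4.08% of all probe sets, and the smallest adjusted p of a member was 0.872 by limma. In the F test over the 3 diets that number was 1 (RPS12), where 2.54% of all probe sets reached it. It was 12 without excess pig 10 and 6 without deficient pig 3. The shares of all probe sets in those leave-out fits were not counted, so these counts cannot be read as particular to the members.

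RPS12, a protein of the head of the small subunit, read 11.84, 11.94 and 11.92 in deficient pigs, 11.84, 11.64 and 11.73 in adequate pigs and 11.55, 11.73 and 11.35 in excess pigs. Deficient pigs lay above the adequate pigs, deficient pig 1 and adequate pig 5 reading alike to 2 decimals, and above all excess pigs, whereas adequate and excess pigs overlapped. The difference between deficient and excess was 0.35 ± 0.10, a 1.28-fold higher mean with a 95% interval of 0.11 to 0.59. It ran from 0.26 to 0.45 when 1 pig at a time was left out. The step from adequate to excess was -0.19 ± 0.10, or -0.097 without excess pig 11 and -0.11 with array SD as a covariate, and the step from adequate to deficient was 0.16 ± 0.10.

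RPL38, a large-subunit protein known from mice for its part in translating Hox mRNAs, went the other way from most members. It read 8.57, 9.19 and 9.04 in deficient pigs, 8.99, 8.92 and 9.29 in adequate pigs and 9.82, 9.40 and 9.21 in excess pigs. Every excess pig lay above every deficient pig, with excess pig 11 and deficient pig 2 almost level, and adequate pigs overlapped both. Deficient minus excess was -0.54 ± 0.21, a 1.46-fold lower mean with an interval of -1.03 to -0.053, and was -0.36 without deficient pig 1. Excess minus adequate was 0.41 ± 0.21, or 0.23 without excess pig 9. It was the only member with all deficient pigs below all excess pigs (2.33% of members, 2.19% of all probe sets).

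**Figure D4:**
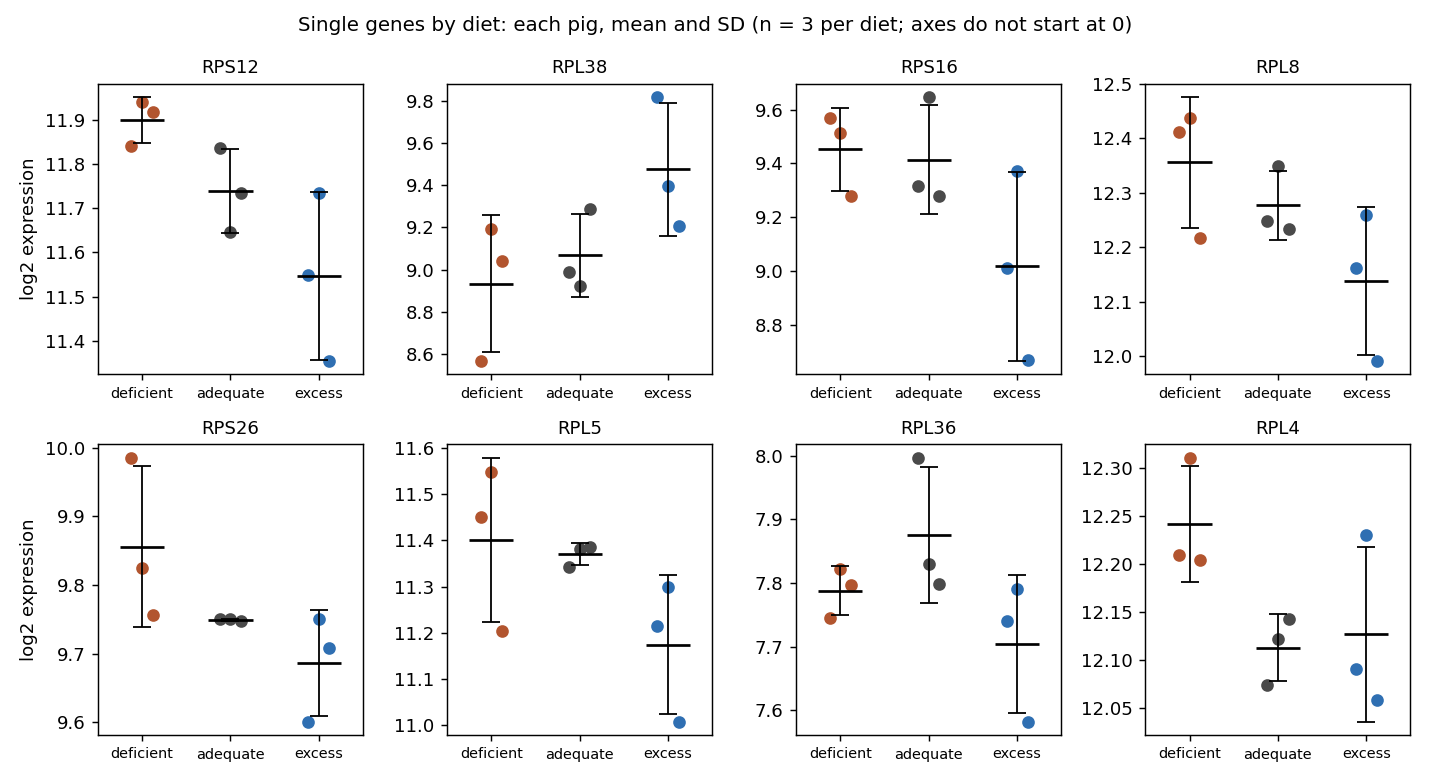
Log2 value of single members in each pig (points) with the diet mean and SD (n = 3 pigs per diet); each panel has its own vertical axis. RPS12 is highest in deficient pigs (11.84 to 11.94) and lowest in excess pig 11 (11.35), and RPL38 is lowest in deficient pig 1 (8.57) and highest in excess pig 9 (9.82).

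RPS12, RPS26, RPL7L1 and RPS19BP1 were the 4 members with all deficient pigs above all excess pigs (9.30% of members, 4.28% of all probe sets). RPS26 differed by 0.17 ± 0.077, or 0.105 without deficient pig 1 and 0.090 after repeated quantile normalization. RPL7L1, a paralog of RPL7 that acts in assembly of the large subunit, read 9.99, 9.95 and 9.98 in deficient pigs, 9.93, 9.97 and 9.92 in adequate pigs and 9.89, 9.95 and 9.54 in excess pigs. Its 0.18 ± 0.11 was 0.055 without excess pig 11, the only low value, 0.082 with array SD as a covariate and 0.10 after repeated quantile normalization. RPL8, a large-subunit protein beside the site of peptide bond formation, read 12.41, 12.44 and 12.22 in deficient pigs and 12.16, 12.26 and 11.99 in excess pigs. Deficient pig 3 lay below excess pig 10, and the difference of 0.22 ± 0.094 was 0.14 without excess pig 11. RPS16 differed by 0.43 ± 0.19, or 0.26 without that pig.

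Other named members, some with a role outside translation or with a paralog, were read next. RPS6, the small-subunit protein phosphorylated by the S6 kinases downstream of mTORC1, read 4.04, 4.33 and 4.44 in deficient pigs, 4.09, 4.18 and 4.29 in adequate pigs and 4.22, 4.51 and 4.56 in excess pigs. All 9 values lay near the floor of the array, and the diets overlapped. Its excess minus adequate difference was 0.24 ± 0.13. Over the alternatives run it went from 0.15 with array weights to 0.35 without excess pig 9 and kept its sign. RPL3, a protein beside the peptidyl transferase centre, read 7.33, 7.54 and 7.71 in deficient pigs and 7.85, 7.59 and 7.62 in adequate pigs, overlapping, with a difference of -0.16 ± 0.16 that was -0.060 without deficient pig 1, -0.076 without adequate pig 5 and -0.25 without deficient pig 3.

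RPLP2, the acidic stalk protein, lay between 11.03 and 11.27 in 8 pigs and at 10.84 in excess pig 11. RPS4X, the X-linked small-subunit protein, lay between 11.35 and 11.50 in 8 pigs and at 11.03 in excess pig 11. RPS25, needed by several viral internal ribosome entry sites, lay between 7.44 and 7.69 in 8 pigs and at 7.14 in excess pig 11. RPS27L, a paralog of RPS27 known as a p53 target, lay between 10.81 and 11.12 in 8 pigs and at 10.52 in excess pig 11. All 4 therefore had their lowest value in the same array. RPL22, which also binds viral and cellular RNAs, did the reverse: it lay between 4.32 and 4.47 in 8 pigs and at 4.91 in excess pig 11. Its excess minus adequate difference of 0.12 ± 0.15 turned to -0.064 without that pig and to -0.087 with array SD as a covariate. RPL22 is dim, and the median of all values was 5.21 on the array of pig 11, against 5.01 to 5.07 on the others. Whether this raised RPL22 there was not tested.

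RPL36AL, a close paralog of RPL36A, read 8.88, 9.07 and 8.95 in deficient pigs and 8.88, 8.83 and 8.71 in adequate pigs. It had the smallest unadjusted p of deficient against adequate, with a difference of 0.16 ± 0.077, and deficient pig 1 was level with adequate pig 5. The only paralog with its parent gene among the members was RPL7L1. The means of RPL7L1 and RPL7 were 9.90 and 6.26, so an array effect that changes with intensity does not cancel between them. The difference RPL7L1 minus RPL7 cancels only what an array does to both alike. It was 3.70, 3.57 and 3.65 in deficient pigs, 3.83, 3.87 and 3.57 in adequate pigs and 3.83, 3.52 and 3.23 in excess pigs. The diets overlapped. Its mean differed by -0.12 for deficient minus adequate (exact 2-sided permutation p = 0.3), by -0.23 for excess minus adequate (exact p = 0.2) and by 0.11 for deficient minus excess (exact p = 0.6), where 3 pigs against 3 allow no p below 0.1. Excess minus adequate was -0.088 without excess pig 11 and -0.39 without excess pig 9, and deficient minus excess turned to -0.033 without excess pig 11 and was 0.26 without excess pig 9.

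Second probe sets showed how far a single value can be read. The 10 genes with several probe sets included 7 whose second probe set had values of its own. Over the 9 arrays r between the 2 was above 0 in 6 of the 7, though mostly low. It went from 0.12 (RPS3) to 0.70 (RPS16), and the next highest was 0.37 (RPL36AL). The sign of the difference was the same in 4 of 7 for deficient minus adequate, 4 of 7 for excess minus adequate and 5 of 7 for deficient minus excess. For RPS16 both probe sets pointed the same way (r = 0.70): the second gave -0.17 ± 0.13 for excess minus adequate and 0.23 ± 0.13 for deficient minus excess. For RPL10A (r = 0.22) the second probe set read 6.79, 7.04 and 6.98 in excess pigs, so the low value of pig 11 was seen by the brighter probe set alone. Its excess minus adequate difference was 0.022 where the brighter probe set had -0.22, and its deficient minus excess difference was 0.0083 against 0.28. For RPS3A the kept probe set was lowest in excess pig 11 (10.85), while the second read 8.29 there, above its mean of 8.01. The second probe set of RPS3 was highest in that pig (9.09), as were those of RPL13A (5.13) and RPL19 (4.92). By contrast, the second of RPL36AL was lowest there (7.46), and that of RPS16 read 8.41, below its mean of 8.55. RPL13A had the pair that went opposite ways (r = -0.72). Its second probe set was dim, with a mean of 4.84, below the median of all probe-set means (5.07). That of RPL19 was dim as well (4.64). In RPL36AL, RPL7L1, RPL8 and RPS27A, 4 members, the probe set kept had values identical to another probe set, so their agreement is no second measurement. Ribosomal protein genes have many processed copies in mammalian genomes, and probe sets annotated to several genes, 9 of them with a ribosomal protein symbol, were not used.

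Other genes of the ribosome's supply chain were read beside the members. FAU, the ubiquitin-like fusion that yields the small-subunit protein eS30, read 11.58, 11.53 and 11.28 in deficient pigs, 11.41, 11.43 and 11.40 in adequate pigs and 11.25, 11.40 and 11.16 in excess pigs. Its excess pigs all lay below the adequate pigs, excess pig 10 and adequate pig 7 reading alike to 2 decimals, with a difference of -0.15 ± 0.098 that was -0.089 without excess pig 11; deficient minus excess was 0.19 ± 0.098. Other mRNAs with a TOP tract (13 of 18 measured: elongation and initiation factors, PABPC1 and the like) were higher on the deficient than on the adequate diet in 12 of 13 (median 0.087), with none at an unadjusted p below 0.05. Over all probe sets 52.9% were higher in that pair. They were lower in excess than in adequate pigs in 9 of 13 (median -0.097; 1 unadjusted, PABPC1) and higher in deficient than in excess pigs in 11 of 13 (median 0.16; 3 unadjusted, beside 4.08% of all probe sets). Without excess pig 11 these last medians were 0.037 and 0.036. PABPC1, the poly(A)-binding protein, differed by 0.38 ± 0.096 between deficient and excess, and EIF3E, a subunit of initiation factor eIF3, by 0.37 ± 0.15, or 0.19 without excess pig 11.

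Ribosome assembly factors (24 of 40 measured) split 12 higher and 12 lower between deficient and adequate pigs (median -0.0023; 1 unadjusted, WDR12). They were lower in excess pigs in 22 of 24 (median -0.20, or -0.070 without pig 11; 1 unadjusted, NIP7), and higher in deficient than in excess pigs in 20 of 24 (median 0.22, or 0.025 without pig 11; 7 unadjusted). WDR12, of the PeBoW complex that processes large-subunit RNA, differed by 0.64 ± 0.16 between deficient and excess. RNA polymerase I genes (9 of 14 measured), which transcribe the ribosomal RNA, gave medians of -0.096, -0.41 and 0.26 in the 3 pairs, and 3, 1 and 9 were higher; without pig 11 the last pair of medians was -0.064 and -0.025. Regulators of ribosomal protein mRNA (7 of 10 measured, MYC among them) gave medians of -0.025, -0.11 and 0.16, with 3, none and all 7 higher; without pig 11 the last pair was -0.0069 and -0.025. MYC itself differed by 0.67 ± 0.28 between deficient and excess, or 0.44 without deficient pig 3. Beside these counts, the shares over all probe sets were 52.9%, 50.2% and 50.0% higher by sign and 1.85%, 3.56% and 4.08% at an unadjusted p below 0.05 in the 3 pairs. No gene of these lists passed the adjusted threshold.

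**Figure D5:**
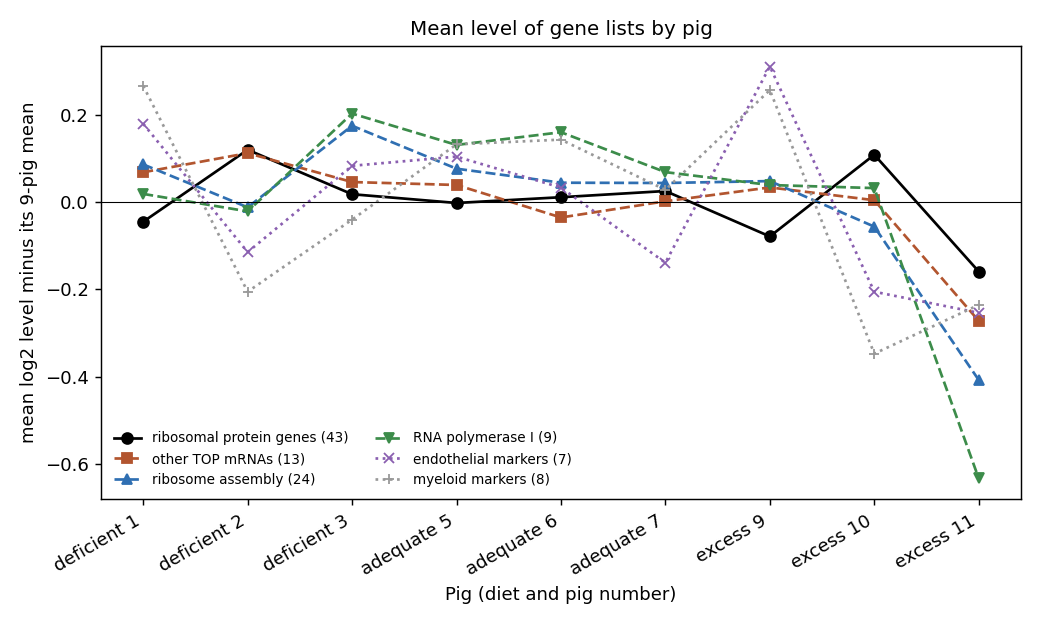
Mean log2 value of each gene list in each pig, as a deviation from that list's 9-array mean, for the ribosomal protein members and the other lists. The members peak in deficient pig 2 and excess pig 10. Excess pig 11 is the lowest pig for the members, the other TOP mRNAs, the assembly factors and the RNA polymerase I genes.

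Markers of other cells in muscle were set beside the members by pig, over their whole lists. The myeloid list (8 of 10 measured; CD14, ITGAM, AIF1 and LYZ below the median level) ranged from 5.38 to 5.86 in deficient pigs, 5.62 to 5.73 in adequate pigs and 5.24 to 5.85 in excess pigs. It was lowest in excess pig 10 (5.24) and then in excess pig 11 (5.35) and deficient pig 2 (5.38), and its correlation with the members' mean was -0.36 over 9 pigs and -0.94 over the 8 without pig 11. The endothelial list (7 of 10) ranged from 6.30 to 6.59, 6.27 to 6.52 and 6.16 to 6.72 in the 3 diets, with correlations of -0.23 and -0.90. The lymphocyte list (10 of 12, 8 of them below the median level) stayed between 4.53 and 4.73 in all pigs, with -0.91 and -0.82. So the pigs with the highest ribosomal protein mRNA, deficient 2 and excess 10, had low values for the myeloid markers, as did excess 11, the pig with the lowest. The endothelial list was lowest in excess pig 11 (6.16), then in excess pig 10 (6.21), adequate pig 7 (6.27) and deficient pig 2 (6.30). The part of these cells in the members' shared level was not tested.

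The adipocyte list (11 of 14 measured, with LEP, PCK1, ADRB3 and RETN below the median level) ranged from 6.34 to 6.50 in deficient, 6.04 to 6.38 in adequate and 5.91 to 6.02 in excess pigs, so deficient and excess did not overlap; its correlation with the members' mean was 0.34, and 0.012 without pig 11. The fibroblast list (14 of 15) ranged from 8.72 to 9.20, 9.26 to 9.65 and 8.54 to 9.15, with all adequate pigs highest and correlations of 0.17 and -0.46. Satellite cell markers (4 of 7) ranged from 6.25 to 6.55, 5.90 to 6.32 and 5.94 to 6.18, with correlations of 0.45 and 0.20. Erythroid markers (4 of 7, all below the median level) ranged from 4.24 to 4.39 over all pigs, with correlations of -0.27 and -0.31. No gene of these lists passed the adjusted threshold, and their part in the members' differences was not tested.

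Outside the family, the genes whose profile over the 9 arrays was most like the members' mean were APEX1 (r = 0.95, or 0.91 without excess pig 11), EIF3K (0.94, or 0.88), the locus LOC100524282 (0.93), DCUN1D4 (0.93), PTRHD1 (0.92), POP7 (0.92), NDUFAF4 (0.91), EXOSC1 (0.91), CDKN2B (0.91, dim with a mean of 4.83) and PHF21B (0.91, dim with a mean of 4.99). They head 12318 named genes compared, of which 13 had r of 0.9 or more and whose median r was 0.056. These correlations share 9 arrays and describe those pigs only.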

How the data were processed

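Total RNA of 9 muscles was hybridised to Affymetrix arrays, 1 per pig. The authors deposited 1 normalized log2 value per probe set and array; the log base was inferred from the range (3.10 to 14.3), and background correction, normalization and summarization are not given in any source used. The submitters' processing notes name GCOS 1.2 and Partek. Of 27558 probe sets, 13323 have 1 gene symbol in the platform annotation, 357 several and 13878 none. RefSeq (Sscrofa11.1) lists 84 genes matching the naming rule, 41 of them not among the members; 41 members matched it by Entrez ID.

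Deposited values were used unchanged, without a filter, in limma 3.58.1 (R 4.3.3): 1 mean per diet over 9 arrays, eBayes, 2-sided, Benjamini-Hochberg over all probe sets. Intervals are 95% and use the moderated test's 7.68 degrees of freedom. The paralog difference was tested by exact permutation. On simulated data (deficient minus adequate, 27558 probe sets) a 2-fold change was called in 67 of 100 altered probe sets, a 4-fold change in 86 of 100, and 9 calls were false. The simulated noise was independent between probe sets, with no level shared by pig. Changes below 2-fold, the size of the members' differences, were not simulated. The number of arrays limits the precision. Each limma p-value sets a diet difference against the spread between these pigs within diets, moderated over all probe sets.

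The members, the gene lists and the naming rule were chosen with earlier results of these data known. Named members are those with non-overlapping diets (the 5 smallest p per direction and comparison), a fixed set (RPL3, RPL22, RPL38, RPLP0, RPLP2, RPS4X, RPS6, RPS19BP1, RPS25, RPS27A, RPS27L and FAU where measured), and the extremes of within-diet SD and of correlation with the other members. Other genes were drawn from the 2 smallest p per list and comparison and from the 10 most similar profiles. RPL7 and RPL8 were added to that rule's genes after their values were seen. Alternatives were another quantile normalization, median centring, only the 6 arrays of a pair, a trended robust prior, array weights, a filter on dim probe sets, the array SD as a covariate, the mean over a gene's probe sets, members with identical probe sets left out, and each pig left out.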

Additional observations from a re-analysis of the deposited data

How the results depend on the processing

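No member passed the adjusted threshold under any alternative run; the smallest adjusted p of a member by limma ranged from 0.606 to 1 for deficient minus adequate, 0.281 to 1 for excess minus adequate and 0.303 to 1 for deficient minus excess. With array weights, whose fit gave a convergence warning, 1 of all probe sets passed for deficient minus adequate and 1 in the F test, against 0 without them; the cause was not tested. Members at an unadjusted p below 0.05 numbered 0 to 3, 0 to 3 and 1 to 12 in the 3 pairs. The shares of all probe sets under those alternatives were not counted. When 1 pig was left out, RPL38 ranged from -0.26 to 0.048, RPS6 from -0.00099 to 0.20 and FAU from -0.013 to 0.14 for deficient minus adequate, RPL22 from -0.064 to 0.23 for excess minus adequate, and RPL7L1 minus RPL7 from -0.033 to 0.26 for deficient minus excess (exact permutation). RPL22 was -0.087 with the array SD as a covariate. The cause of these reversals was not tested. With 3 pigs per diet the intervals of 6 members or fewer per pair reached past 1.5-fold, smaller differences were not called, dim probe sets such as RPS6 and RPL22 lie near the array floor, and the 41 genes of the family not among the members are not described. No paired analysis was possible because pig numbers are not shared between diets.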
